A study of Mus musculus with 172 samples.

Results

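The 39 genes described here encode the folding machinery of the endoplasmic reticulum (ER), the regulators of the unfolded protein response and targets of the transcription factor ATF4. The members were chosen by symbol from their known function, out of 49671 genes in the count files, and fall into 11 ER chaperones and cochaperones, 4 disulfide isomerases, 7 genes of ER-associated degradation, 5 of the translocon, 6 sensors and transcription factors and 6 ATF4 targets. The set was proposed with earlier results of these data known, so the tests below, taken from fits over all genes, describe the members and are not independent evidence for their directions. All 39 symbols were found.

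The study sequenced single cells of the inner cell mass (ICM) of mouse blastocysts by Smart-seq2. Embryos came from matings between mice heterozygous for a null allele of Pou5f1, which encodes the transcription factor OCT4, on a mixed genetic background. They were wild type (WT), heterozygous (HET) or null (MUT). The trophectoderm (TE), the outer layer of the blastocyst, was removed by immunosurgery and used for genotyping. At embryonic day E3.5 there were 29 MUT cells from 4 embryos and 58 WT/HET cells from 5 WT and 2 HET embryos. At E4.5 there were 19 MUT cells from only 2 embryos, with 11 and 8 cells, and 66 WT/HET cells from 2 WT and 4 HET embryos, which the authors had assigned to epiblast (EPI, 37 cells) or primitive endoderm (PrE, 29 cells). Each embryo was treated as 1 replicate by adding up its cells, with EPI and PrE kept apart, and levels are given as CPM, counts scaled to the size of the library. Cells held 363819 to 4644070 counts and the sums 2736296 to 17453036. The EPI sums held 3 to 8 cells and the PrE sums 2 to 7 cells. Pou5f1 was at 2.75 to 5.67 CPM in the E3.5 MUT embryos and at 0 in both E4.5 MUT embryos, against 199 to 435 CPM in E3.5 WT/HET embryos and 47.4 CPM or more in every control sum at E4.5.

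The labelled cell types were checked against fixed markers. All 13 PrE markers were higher in PrE than in EPI, with a summed level of 8227 to 13490 CPM in PrE and 352 to 587 CPM in EPI. E4.5 MUT embryos went with neither class. Their 9 EPI markers summed to 1173 and 501 CPM, against 2256 to 3848 CPM in EPI and 175 to 403 CPM in PrE. Nanog differed from that list sum, at 388 to 657 CPM in MUT and 138 to 410 CPM in EPI. Their 11 TE markers summed to 3632 and 4809 CPM, against 16.7 to 112 CPM in EPI and 82.0 to 480 CPM in PrE, and Krt8 and Krt18 led them with means of 2009 and 1626 CPM. Their PrE markers summed to 1443 and 2225 CPM, with Sparc and Dab2 present and Sox7 and Foxa2 at 0 in both. E3.5 and E4.5 cells were processed on different plates, so stage and plate cannot be told apart.

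Proteins that enter the secretory pathway are threaded into the ER through the translocon, folded by chaperones and disulfide isomerases, and returned to the cytosol for degradation if they fail to fold. Unfolded protein activates the sensors IRE1 (Ern1), PERK (Eif2ak3) and ATF6, which raise chaperone transcription through spliced XBP1 and cleaved ATF6, and ATF4 translation through phosphorylation of eIF2. PrE is the secretory lineage of the blastocyst and lays down the basement membrane. Gene counts show neither the splicing of Xbp1 nor the translation of Atf4.

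Chaperone promoters are known for the ER stress response element (ERSE), to which ATF6 and XBP1 bind, written CCAAT and CCACG separated by 9 bases. Promoter windows from 250 bases before to 50 after the RefSeq start (build GRCm38.p6) were matched for 33 of the 39 members. On either strand the ERSE was found in 9 members (27.3%), against 37 of 27025 genes (0.14%). The stretches below are read 5′ to 3′ along the gene, with both boxes of the element in capitals, and are shown because they hold the element for which ER chaperones are known.

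Hspa5 (chr2:34772005-34772063, gene on the plus strand): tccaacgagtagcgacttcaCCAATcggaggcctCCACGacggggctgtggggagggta
Hsp90b1 (chr10:86705618-86705676, gene on the minus strand): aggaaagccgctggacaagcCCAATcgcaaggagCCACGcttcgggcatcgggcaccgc
Hsp90b1 (chr10:86705513-86705571, gene on the minus strand): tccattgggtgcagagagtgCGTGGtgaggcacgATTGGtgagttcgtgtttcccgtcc
Calr (chr8:84847055-84847113, gene on the minus strand): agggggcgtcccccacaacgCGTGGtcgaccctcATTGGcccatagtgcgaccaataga
Canx (chr11:50325780-50325838, gene on the minus strand): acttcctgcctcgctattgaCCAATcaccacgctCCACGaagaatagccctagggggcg
Dnajc3 (chr14:118937807-118937865, gene on the plus strand): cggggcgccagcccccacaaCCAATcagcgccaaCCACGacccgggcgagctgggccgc
Creld2 (chr15:88819500-88819558, gene on the plus strand): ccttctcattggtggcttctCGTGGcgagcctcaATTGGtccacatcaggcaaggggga
Pdia6 (chr12:17266471-17266529, gene on the plus strand): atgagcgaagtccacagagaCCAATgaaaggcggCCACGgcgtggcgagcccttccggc
Syvn1 (chr19:6046512-6046570, gene on the plus strand): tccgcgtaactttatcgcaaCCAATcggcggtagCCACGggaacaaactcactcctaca
Derl3 (chr10:75893222-75893280, gene on the plus strand): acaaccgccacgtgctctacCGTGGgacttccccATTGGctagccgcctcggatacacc

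The reverse complement of the element begins with CGTGG, and it is in this orientation in Calr, Creld2, Derl3 and the second copy of Hsp90b1. A second form, ERSE-II, has ATTGG and CCACG separated by 1 base and was found in 2 members, Herpud1 and Dnajb11 (6.1%), against 0.04% of genes. The amino acid response element TGATGNAA, where N is any base, is known to be bound by ATF4. It was present in Asns, Chac1, Trib3 and Herpud1 (12.1% of members, against 4.51% of genes), and the ER element TGACGTGG was present in none of the members and in 0.71% of genes. The 2 elements of Herpud1 and the amino acid response elements of Asns and Chac1 are shown, with the fixed letters in capitals, because these genes are followed through the comparisons below.

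Herpud1, ERSE-II (chr8:94386357-94386407, gene on the plus strand): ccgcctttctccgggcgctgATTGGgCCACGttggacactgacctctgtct
Herpud1, amino acid response element (chr8:94386297-94386344, gene on the plus strand): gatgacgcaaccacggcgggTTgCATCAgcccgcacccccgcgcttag
Asns (chr6:7693210-7693252, gene on the minus strand): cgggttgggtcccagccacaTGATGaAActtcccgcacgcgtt
Chac1 (chr2:119351029-119351076, gene on the plus strand): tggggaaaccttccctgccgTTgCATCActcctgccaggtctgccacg

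These matches describe the letters in the windows. Factor binding was not measured.

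The members were most abundant in PrE. Their summed level was 21330 to 26960 CPM in the 6 PrE sums, 7445 to 9425 CPM in EPI, 7273 to 11330 CPM in E3.5 WT/HET, 10880 to 14790 CPM in E3.5 MUT, and 7203 and 7420 CPM in the E4.5 MUT embryos. The mean sums correspond to 2.45% of a normalized library in PrE and 0.731% in E4.5 MUT. Of the 39, 28 had their highest mean in PrE, 6 in E3.5 MUT, 2 in E4.5 MUT, 2 in E3.5 WT/HET and 1 in EPI. The lowest mean was in E4.5 MUT for 14 members, in EPI for 12 and in E3.5 WT/HET for 10. Per kilobase of exon, the most abundant members in PrE were P4hb at 1161 ± 152 CPM per kb (SD, n = 6), Hspa5 at 882 ± 166, Pdia3 at 797 ± 131 and Calr at 523 ± 91.4. In EPI the first was Pdia3 at 338 ± 71.1 CPM per kb, next to Ssr2 at 293 ± 42.3 and P4hb at 290 ± 41.5, and these neighbours lay within their spread.

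**Figure D1:**
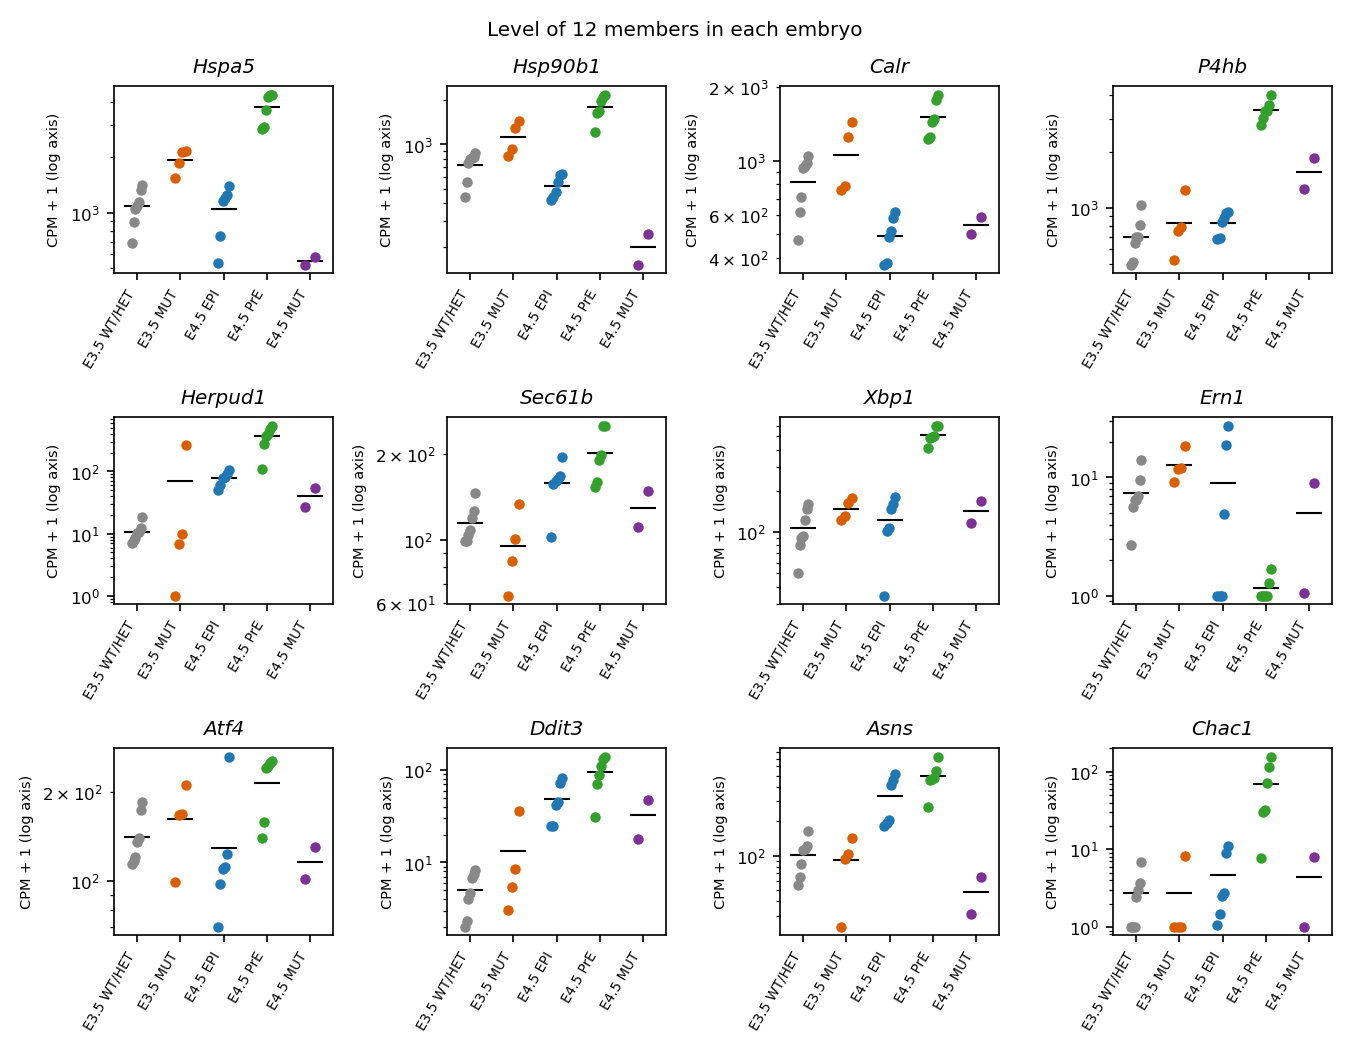
CPM plus 1 on a log axis for 12 members in each embryo, with 1 point per embryo sum, 5 classes on the x axis and a bar at the mean of each class. Hspa5, Hsp90b1, P4hb and Xbp1 lie above EPI in all 6 PrE sums, and Hspa5 lies at 580 and 521 CPM in the E4.5 MUT embryos.

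PrE and EPI cells of the same 6 embryos were compared to describe the folding machinery of the secretory lineage. The authors drew these classes from the same transcriptomes, so the contrast describes the classes. In PrE, 21 of 38 tested members were higher and none lower (edgeR quasi-likelihood test, Benjamini-Hochberg adjusted over 9762 genes), where 5.2% of all tested genes were higher and 4.61% lower. At an unadjusted p under 0.05, 30 members passed. Here and in the comparisons below, the share of all genes at this unadjusted threshold was not counted. The median log2 fold change of the members was 1.36, against -0.03 over all genes. In 19 members every PrE sum was above every EPI sum on the CPM scale, and the share of all genes that did so was not counted. Of 9 tested immediate early genes, which respond to dissociation, 3 were also higher in PrE, Junb, Jun (2.61 on the log2 scale) and Egr1 (1.37), and their part in the result was not tested. With WT embryos as the only controls, which leaves 2 per class, 0 members passed.

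Among the chaperones, 9 of 11 were higher. Hspa5 encodes BiP, the main ER chaperone of the HSP70 family. Its lowest, median and highest levels were 2865, 3921 and 4385 CPM in PrE and 535, 1189 and 1405 CPM in EPI (log2 fold change 1.84, SE 0.22, adjusted p = 9.72e-05). Even the lowest PrE sum was above the highest EPI sum. Hsp90b1, the ER form of HSP90, was at 1213, 1834 and 2194 CPM in PrE and at 419, 512 and 627 CPM in EPI (log2 fold change 1.81, SE 0.16, adjusted p = 6.97e-06), and 15.7% of its exon bases are shared with other genes. Calr, a lectin chaperone that binds glycoproteins, was at 1225, 1459 and 1864 CPM against 374, 501 and 614 CPM (log2 fold change 1.63, SE 0.16, adjusted p = 1.55e-05). Both pairs of ranges were separate. Its membrane-bound relative Canx differed less, with a log2 fold change of 0.91. The largest chaperone difference was that of Dnajc3, a BiP cochaperone that also inhibits PERK, at 188 to 427 CPM in PrE and 6.02 to 44.2 CPM in EPI (log2 fold change 3.67). Dnajb11, Sdf2l1, Manf and Creld2, which work with BiP or are secreted under ER stress, had log2 fold changes of 1.98, 1.75, 1.94 and 1.67.

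Dnajb9 and Hyou1 were the chaperones that did not pass. Dnajb9, the cochaperone ERdj4 and a known XBP1 target, was at 5.75 to 62.1 CPM in PrE and 4.05 to 54.2 CPM in EPI, overlapping ranges with a log2 fold change of 0.18 (SE 0.74, adjusted p = 0.942). It had a count in 17 of 29 PrE cells and 19 of 37 EPI cells. At E3.5 it had a count in 57 of 58 WT/HET cells. Hyou1, which exchanges the nucleotide of BiP, was at 11.2 to 81.5 CPM in PrE and 3.88 to 40.7 CPM in EPI (log2 fold change 1.32, adjusted p = 0.221).

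All 4 disulfide isomerases were higher in PrE. P4hb encodes PDI, which forms and rearranges disulfide bonds and is also a subunit of collagen prolyl hydroxylase. It was at 2774, 3295 and 4030 CPM in PrE and 683, 861 and 954 CPM in EPI, the smallest adjusted p among the members (log2 fold change 2.01, SE 0.13, adjusted p = 4.14e-07). Pdia6 was at 1476, 1782 and 1992 CPM in PrE and 520, 578 and 682 CPM in EPI (log2 fold change 1.58, SE 0.12, adjusted p = 1.31e-06). Neither gene had overlapping ranges. Pdia3, which acts on glycoproteins with Calr and Canx, and Pdia4 had log2 fold changes of 1.25 and 1.48.

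Of the 7 genes of ER-associated degradation, 2 were higher and all 7 had positive estimates. Herpud1, a stress-induced membrane component of the degradation complex, was at 107, 389.8 and 546 CPM in PrE and 49.5, 79.2 and 105 CPM in EPI (log2 fold change 2.26, SE 0.33). It had a count in 29 of 29 PrE cells and 28 of 37 EPI cells. Syvn1, the ubiquitin ligase of the complex, had a log2 fold change of 2.29. Its partner Sel1l and the derlins and Edem1, which take misfolded glycoproteins to the complex, did not pass, with log2 fold changes of 1.03 for Sel1l, 1.06 for Derl1, 0.31 for Derl2, 1.22 for Derl3 and 1.82 for Edem1. In the translocon, the pore subunit Sec61a1 was at 921 to 1384 CPM in PrE against 228 to 399 CPM in EPI (log2 fold change 1.85, SE 0.17, adjusted p = 6.88e-06). The small pore subunit Sec61b was at 152, 194 and 250.2 CPM against 101, 161 and 194 CPM, and these ranges overlapped (log2 fold change 0.36, adjusted p = 0.3). Serp1, which stabilises new membrane proteins, was higher by 1.24 on the log2 scale with overlapping ranges, and the translocon-associated Ssr1 and Ssr2 did not pass, at 0.96 and 0.47.

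Among the sensors and factors, Xbp1 was the member that passed. It was at 408, 496 and 599 CPM in PrE and 33.2, 127 and 180.2 CPM in EPI (log2 fold change 2.10, SE 0.31). Ern1, whose product splices Xbp1, was listed at 0 in 4 PrE sums and at 0.277 and 0.695 CPM in the other 2, too low to be tested. It had a count in 2 of 29 PrE cells and 6 of 37 EPI cells. In EPI it ranged from 0 to 26.4 CPM. Atf4 was at 139, 243 and 255 CPM in PrE and 69.1, 110 and 263 CPM in EPI, and Ddit3, which encodes CHOP, at 30.4, 97.8 and 139.6 CPM and 23.8, 42.4 and 80.3 CPM. Both overlapped, with log2 fold changes of 0.75 and 1.01 (adjusted p = 0.14 and 0.155). Eif2ak3 and Atf6 did not pass, at 1.03 and 1.27.

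The ATF4 targets did not move as a block. Phgdh and Psat1, successive enzymes of serine synthesis, were higher by 2.09 and 1.01 on the log2 scale. Chac1, which degrades glutathione, was at 6.84, 50.8 and 156 CPM in PrE and 0.0616, 1.62 and 10.2 CPM in EPI (log2 fold change 4.24, SE 1.06, adjusted p = 0.02) and had a count in 21 of 29 PrE cells and 9 of 37 EPI cells. Its ranges overlapped, and the call was lost without embryo 2, 4 or 7 (adjusted p up to 0.0871). Asns, asparagine synthetase, was at 267, 469.6 and 732 CPM in PrE against 182, 307 and 519 CPM in EPI (log2 fold change 0.59, adjusted p = 0.293). Sesn2 did not pass although its ranges were separate, at 46.9 to 98.4 and 4.12 to 44.4 CPM, and Trib3 had the single negative estimate, -0.95.

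Further genes of these pathways were counted from lists of general knowledge. Of 46 other ER folding, translocation and glycosylation genes, 17 were higher in PrE and none lower, with a median log2 fold change of 0.74. The smallest adjusted p were those of Selenos at 2.40, Ppib at 1.41 and Dnajc10 at 2.31 on the log2 scale. Of 31 tested ATF4 and amino acid response genes, 4 were higher and 2 lower, with a median of 0.29, and Eif4ebp1 at -1.58, Slc7a1 at 1.46 and Aldh18a1 at 4.29 had the smallest adjusted p. Of 13 tested chaperones of the cytosol and mitochondria, none was higher and Hsp90aa1 was lower, by 0.81 on the log2 scale (adjusted p = 0.00012), with a median of 0.00. Next in this list were Trap1 at -0.84 and Dnaja1 at -0.31, which did not pass.

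**Figure D2:**
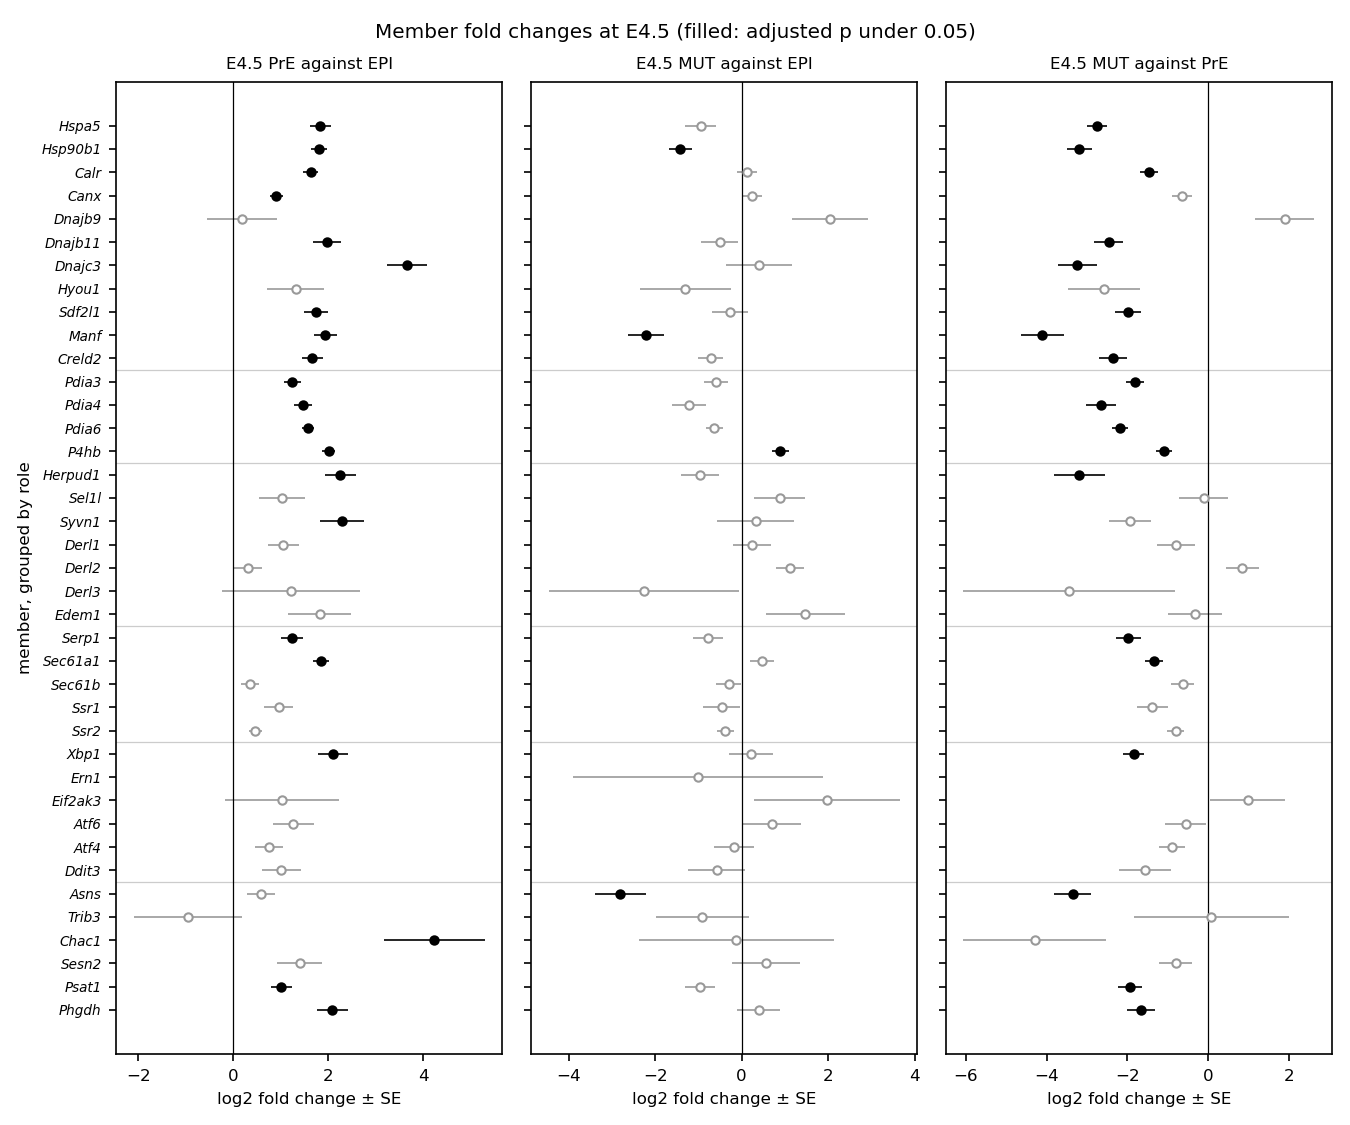
Log2 fold change with its standard error for each member, in rows ordered by role, for PrE against EPI, E4.5 MUT against EPI and E4.5 MUT against PrE. Filled points passed an adjusted p of 0.05. There are 21 of them on the left, all above 0, 4 in the middle and 19 on the right, all below 0.

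MUT and WT/HET ICMs were next compared at E3.5, where the labels give no lineage. In MUT, 4 of 39 members were higher and none lower, where 3.2% of 12075 genes were higher and 2.98% lower. At an unadjusted p under 0.05, 13 members passed, again without a count over all genes. The median of the members was 0.42 on the log2 scale, against -0.02 for all genes. Of the 11 chaperones 3 were higher. The estimates of all 11 were positive, but with 1 embryo left out those of Dnajc3, Sdf2l1 and Creld2 fell as far as -0.57, -0.77 and -0.11.

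Hspa5 was at 2173, 2149, 1859 and 1546 CPM in the 4 MUT embryos. The 7 WT/HET embryos had 686, 1093 and 1421 CPM as their lowest, median and highest values (log2 fold change 0.88, SE 0.18, adjusted p = 0.0146). Every MUT embryo was above every control, and 25 of the 29 MUT cells were above the median control cell. Dnajb9 differed most, at 1343, 319, 269.9 and 639.9 CPM in MUT against 79.5, 114 and 161 CPM (log2 fold change 2.52, SE 0.37, adjusted p = 0.00321). All 4 MUT embryos were above the controls, embryo 10 the highest of them, and 26 of the 29 MUT cells were above the median control cell. Dnajb11, a cochaperone of BiP, was at 273, 257, 231 and 189.5 CPM against 120, 131 and 193 CPM (log2 fold change 0.76, SE 0.16, adjusted p = 0.0171). Of the 4 MUT embryos 3 were above every control, and embryo 19 lay just under the highest. Without MUT embryo 10 the call was lost (adjusted p = 0.0509).

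Phgdh was the fourth, at 728, 205, 522 and 153 CPM in MUT and 132, 169 and 214 CPM in WT/HET (log2 fold change 1.34, SE 0.35, adjusted p = 0.039). Its ranges overlapped, since embryos 12 and 19 lay among the controls. The call was lost without MUT embryo 10 or 17, without WT embryo 9, 11, 13 or 14, and without HET embryo 15 or 16 (adjusted p up to 0.143). Canx was at 879.7, 948, 853 and 1020 CPM in MUT against 716 to 863 CPM, with 3 of 4 MUT embryos above every control, and its log2 fold change was 0.27 (adjusted p = 0.147).

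The other anchor genes overlapped between genotypes at E3.5. Hsp90b1 was at 1288, 1441, 927 and 829.1 CPM in MUT and 438, 791 and 879 CPM in WT/HET (log2 fold change 0.69, adjusted p = 0.0724). Calr was at 755, 1250, 1440 and 788 CPM against 475, 935 and 1042 CPM, and P4hb at 793, 1251, 749 and 523 CPM against 494, 699 and 1040 CPM. Sec61b was at 83.1, 132, 62.6 and 99.3 CPM against 97.7, 107 and 145 CPM. None of these passed, and their log2 fold changes were 0.42 for Calr, 0.29 for P4hb and -0.22 for Sec61b.

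Among the regulators and ATF4 targets the genotypes overlapped as well. Of the 6 ATF4 targets 5 had positive estimates and 1, Asns, a negative one, with a median log2 fold change of 1.02. The positive estimates of Chac1 and Trib3 rested largely on embryo 12. Chac1 had a count in 1 of 29 MUT cells. Trib3 was at 5.12, 43.9, 3.18 and 11 CPM in MUT against 3.06 to 10.4 CPM in controls. Its median cell was at 0 CPM in MUT and at 3.68 CPM in controls. Sesn2 was at 12, 32.5, 31.8 and 36.2 CPM in MUT against 2.4 to 20.2 CPM in controls and did not pass. Of its 4 MUT embryos 3 were above every control, and 26 of 29 MUT cells were above the median control cell. Xbp1, the factor downstream of IRE1, was at 121, 175, 162 and 129.5 CPM in MUT and 48.9, 92.8 and 159 CPM in controls (log2 fold change 0.52). Atf4 was at 98.8, 211, 168 and 166 CPM and 114, 135 and 185 CPM, and Asns at 22.8, 143, 92.9 and 103 CPM and 54.3, 109.9 and 162 CPM, with log2 fold changes of 0.24 and -0.12. Ern1 was at 17.6, 8.08, 11.1 and 10.7 CPM in MUT and 1.7, 5.46 and 13 CPM in WT/HET (log2 fold change 0.95, adjusted p = 0.289).

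A small number of E3.5 cells stood apart in these genes. Averaged over the 39 members on a log2(CPM + 1) scale, 4 of the 87 E3.5 cells were above 7, at 8.79 and 7.98 in MUT embryo 12 and at 7.88 and 7.37 in WT embryo 13, and the next highest E3.5 cell was at 6.75. The other 8 cells of embryo 12 lay between 5.62 and 6.37, and the other 8 of embryo 13 between 5.6 and 6.61. Of the 39 members, 22 were higher in both such cells of embryo 12 than in each of its other cells, and 20 in embryo 13. The cells were picked by the mean of these same members, so high values of the members in them follow from the choice. The share of all genes higher in these cells was not counted. Hspa5 was at 6345 and 5409 CPM in the pair of embryo 12, against a median of 892 CPM in its other cells. In the pair of embryo 13 it was at 4062 and 4298 CPM against 777 CPM. Creld2 was at 1460 and 877 CPM against 87.6 CPM in embryo 12, and at 1134 and 1121 CPM against 95.8 CPM in embryo 13.

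The highest of these cells, in MUT embryo 12, was also high in the ATF4 arm, whose genes are part of the mean that picked it. It had 2001 CPM of Herpud1, 331 of Trib3, 250.9 of Ddit3, 733 of Asns and 598 of Atf4. The medians of the 8 other cells were 0, 0, 0, 44.5 and 144 CPM. The second cell of embryo 12 had 6.75 CPM of Ddit3 and 138 of Asns. The pair in embryo 13 had 136 and 125 CPM of Atf4, against a median of 147. The 13 PrE markers summed to 154 and 598 CPM in the pair of embryo 12, against 393 to 584 CPM in its other cells, and to 325 and 221 CPM in the pair of embryo 13, against 158 to 439 CPM. The 11 TE markers summed to 609 and 391 CPM against 467 to 783 CPM, and to 314 and 305 CPM against 298 to 509.7 CPM. The 9 EPI markers had a lower sum in all 4 cells than in each other cell of the embryo. In embryo 12 the sums were 167 and 399 CPM, against 615 to 2343 CPM. In embryo 13 they were 613 and 594 CPM, against 954 to 1792 CPM. Single EPI markers went both ways. In embryo 12 Nanog was at 46.2 and 333.5 CPM against a median of 1045 CPM, and Esrrb at 63.6 and 5.78 CPM against 12.7 CPM. In embryo 13 Nanog was at 443 and 297 CPM against 890 CPM, and Utf1 at 38.9 and 52.8 CPM against 22.1 CPM. The part of these markers in the member levels was not tested. The cells held 606384 to 1666273 counts each.

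The Herpud1 sum of embryo 12 came mostly from its highest cell. Herpud1 was at 0, 267, 5.84 and 8.78 CPM in the MUT embryos and 6.12, 9.16 and 17.7 CPM in WT/HET, with a count in 8 of 29 MUT cells and 35 of 58 control cells. Its log2 fold change, 2.88, was the largest of the members, and it did not pass (SE 1.09, adjusted p = 0.139). Ddit3 was at 2.08, 35.1, 4.38 and 7.41 CPM against 1, 3.69 and 7.23 CPM and Chac1 at 0, 7.12, 0 and 0 CPM against 0, 1.42 and 5.95 CPM, in both cases highest in embryo 12. With the 4 cells left out, a choice made after the data were seen, Hspa5, Dnajb9 and Dnajb11 were again higher (log2 fold changes 0.80, 2.48 and 0.74, adjusted p = 0.0363, 0.0053 and 0.0158), Phgdh did not pass (adjusted p = 0.0655), and the median of the members was 0.18. Without embryo 12 that median was 0.09.

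Of the 46 other ER genes, none was higher and 1 was lower, Mbtps1, the protease that activates ATF6 (log2 fold change -0.78, adjusted p = 0.0475), with Sec11a and Srprb next and not called. Of the 31 tested ATF4 and amino acid genes, 2 were higher, Slc3a2 (1.18) and Ddit4 (2.63), and Eif2ak4 was lower (-2.41). Of 15 cytosolic and mitochondrial chaperones, Hspa8 (0.53) and Hsp90ab1 (0.43) were higher and Hsph1 was lower (-1.36). Of 9 tested immediate early genes 1 was higher in MUT, Jun (2.27). Of 7 tested TE markers 2 were higher, Hand1 and Gata3, and the TE list summed to 632 to 1137 CPM in MUT against 211 to 778 CPM. Of 10 tested PrE markers 3 were higher, Col4a1, Col4a2 and Dab2, and the PrE list summed to 415 to 632 CPM in MUT against 145 to 366 CPM. Of 8 tested EPI markers 4 were lower, led by Gdf3, Tdgf1 and Utf1, with a list median of -2.77, and the EPI list summed to 411 to 1029 CPM in MUT against 728 to 1350 CPM. The part of these markers in the member levels was not tested.

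At E4.5 the MUT embryos were compared with EPI, with PrE and with the whole control ICM, all of which use the same 2 MUT embryos. With 2 embryos the spread within MUT is known poorly. Against EPI, 1 member was higher and 3 were lower of 39, where 2.3% of 12953 genes were higher and 2.62% lower. At an unadjusted p under 0.05, 11 members passed. The median of the members was -0.30, against -0.03 over all genes. The 46 other ER genes went the other way, with 37 positive and 8 negative estimates and a median of 0.38. Of them 2 were higher and none lower.

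The members lower than in EPI were Manf, Hsp90b1 and Asns. Manf, a secreted ER protein that protects against ER stress, was at 21.1 and 47.8 CPM in MUT and 123, 151 and 199 CPM in EPI (log2 fold change -2.21, SE 0.41, adjusted p = 0.0155). Hsp90b1 was at 245 and 149 CPM against 419, 512 and 627 CPM (log2 fold change -1.42, SE 0.27, adjusted p = 0.0187). Asns was at 30.1 and 64.6 CPM against 182, 307 and 519 CPM (log2 fold change -2.80, SE 0.58, adjusted p = 0.0259). None of the 3 had overlapping groups. P4hb was higher, at 1267 and 1852 CPM against 683, 861 and 954 CPM (log2 fold change 0.89, SE 0.20, adjusted p = 0.0328). These calls rested on few embryos. Without MUT embryo 3 Manf and Asns did not pass (adjusted p = 0.113 for Manf), without MUT embryo 8 Hsp90b1, Asns and P4hb did not (0.143 for Hsp90b1, and up to 0.199 for Asns), and P4hb was also lost without control embryo 2, 4 or 5 (up to 0.252).

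The remaining anchors did not pass against EPI. Hspa5 was at 579.5 and 521 CPM in MUT, beside the lowest EPI embryo at 535 CPM (log2 fold change -0.95, adjusted p = 0.166). Calr was at 501 and 589.9 CPM, Xbp1 at 115 and 169 CPM, Herpud1 at 53.1 and 26.1 CPM and Sec61b at 147 and 110.3 CPM. Atf4 was at 129 and 101 CPM, Ddit3 at 46.9 and 17.1 CPM, Chac1 at 6.86 and 0 CPM and Ern1 at 0.0592 and 7.93 CPM. For all 9 genes the EPI and MUT ranges overlapped. Dnajb9 was at 140.1 and 64.5 CPM in MUT, above the 4.05 to 54.2 CPM of EPI, and did not pass (log2 fold change 2.04, adjusted p = 0.247). Sel1l, Derl2, Edem1 and Eif2ak3 also lay above every EPI sum, and Creld2, Pdia4, Pdia6 and Psat1 below every EPI sum, without passing. Of the 7 genes of ER-associated degradation 5 had positive and 2 negative estimates, with a median of 0.32. Dnajb9, Derl2 and Eif2ak3 were above every PrE sum as well, a comparison in which 34 of 38 tested members had negative estimates.

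Against PrE, 19 of 38 tested members were lower in MUT and none higher, where 2.07% of 12246 genes were lower and 1.74% higher. The median was -1.74, against 0.05 over all genes. At an unadjusted p under 0.05, 28 members passed. Hspa5 had the smallest adjusted p (log2 fold change -2.75, SE 0.24, adjusted p = 0.000347), followed by Pdia6 (log2 fold change -2.18, SE 0.20, adjusted p = 0.0005) and Hsp90b1 (log2 fold change -3.19, SE 0.31, adjusted p = 0.000652). Manf was lower by 4.11 and Pdia3 by 1.81 on the log2 scale (both adjusted p = 0.00303). By role, 8 of 11 chaperones and all 4 disulfide isomerases were lower, with Herpud1, Serp1, Sec61a1, Xbp1, Asns, Psat1 and Phgdh. Without MUT embryo 3, 7 members passed.

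Whole control ICMs sum all sampled cells of an embryo, as was done at E3.5, and hold both lineages in unequal shares. PrE cells were 5 of the 8 in embryo 1 and 2 of the 9 in embryo 6. The part of these shares in the values below was not tested. Against whole ICMs 15 of 39 members were lower in E4.5 MUT and none higher, where 4.27% of 14105 genes were lower and 3.1% higher. The median was -1.06, against -0.10 over all genes, and 24 members passed an unadjusted p of 0.05. Hspa5 was at 1891, 2139 and 3169 CPM in the 6 control ICMs (log2 fold change -2.04, SE 0.23, adjusted p = 0.00136). Hsp90b1 was at 696, 1190 and 1436 CPM (log2 fold change -2.48, SE 0.31, adjusted p = 0.00214). Every control ICM was above both MUT embryos for each gene. Pdia6 was lower by 1.53, Manf by 3.34 and Asns by 3.00 on the log2 scale, with adjusted p of 0.0022, 0.00274 and 0.00514. These 5 passed whichever embryo was left out. P4hb overlapped the control ICMs, which were at 1385 to 2940 CPM (log2 fold change -0.35). Without MUT embryo 3, 8 members passed, and against the 2 WT control embryos alone, none did.

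Against the whole ICM 7 of 11 TE markers were higher in MUT and 6 of 13 PrE markers lower, against PrE 2 of 11 and 8 of 13, with the summed levels given above. Their part in the lower chaperone levels was not tested. Of the 46 other ER genes, none was lower and 1 was higher than in the whole ICM, Edem2 (log2 fold change 2.29, adjusted p = 0.00341), with a median of -0.05, and Txndc5 and Fkbp2 came next without passing. Of 36 tested ATF4 and amino acid genes, 9 were lower and none higher. They were led by Mars (-1.85), the methionyl-tRNA synthetase, Slc7a1 (-2.81), a transporter of cationic amino acids, and Tars (-1.27), the threonyl-tRNA synthetase. Of 15 cytosolic and mitochondrial chaperones, 4 were lower, with Hspb1 (-2.76), Hspa4 (-1.65) and Hsph1 (-2.19) first. Mars lies on the strand opposite Ddit3, and 4.7% of the exon bases of Ddit3 are shared with it and another gene. Pairs that fell in several genes were left out of the counts.

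The difference between stages was tested as an interaction over all 19 embryos, with the whole ICM as the control at E4.5. For 11 of 39 members the MUT effect was lower at E4.5 than at E3.5 and for none higher, where 2.75% of 16410 genes were lower and 2.71% higher. The median of the members was -1.68, against -0.08 for all genes. At an unadjusted p under 0.05, 25 members passed. Hspa5 went from a log2 fold change of 0.88 at E3.5 to -2.04 at E4.5 (difference -2.93, SE 0.32, adjusted p = 1.99e-05). For Hsp90b1 the difference was -3.18 (SE 0.39, adjusted p = 9.4e-05). Dnajb11 differed by -2.44 and Manf by -4.54 (adjusted p = 0.000154 and 0.000418). These 4, Pdia3 and Psat1 passed whichever embryo was left out. With EPI in place of the whole ICM as the E4.5 control 5 members passed, and with PrE 20 did.

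Psat1 was at 1002, 508, 704 and 634 CPM in MUT and 374, 434 and 652 CPM in WT/HET at E3.5, and at 106 and 102 CPM in MUT and 187, 298 and 424 CPM in control ICMs at E4.5 (difference -2.21, SE 0.39, adjusted p = 0.00225). At E3.5, 2 of the 4 MUT embryos were above every control and the other two lay in the control range, while at E4.5 both MUT embryos were below every control ICM. The others were Pdia3, Pdia4, Hyou1, Asns, Phgdh and Xbp1, with differences from -1.51 to -2.96. Hyou1, Pdia4, Xbp1 and Asns were lost without MUT embryo 3 (adjusted p of 0.11, 0.0923, 0.175 and 0.124), and Phgdh without MUT embryo 3 or 8 (up to 0.0936). Dnajb9 was the chaperone with a positive estimate at both stages. It was above the controls at both stages, by 2.52 and 1.94 on the log2 scale, although it did not pass at E4.5, and the difference between stages was -0.58 (adjusted p = 0.776). Of the 46 other ER genes 1 differed, Edem2, which was higher (1.83), with Srprb and Rpn1 next and not called. Of 37 ATF4 and amino acid genes 6 were lower, led by Mars, Slc3a2 and Tars, and 1 was higher. Of 15 cytosolic and mitochondrial chaperones 1 was lower, Hspa4, with Hspa8 and Hspa9 next.

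**Figure D3:**
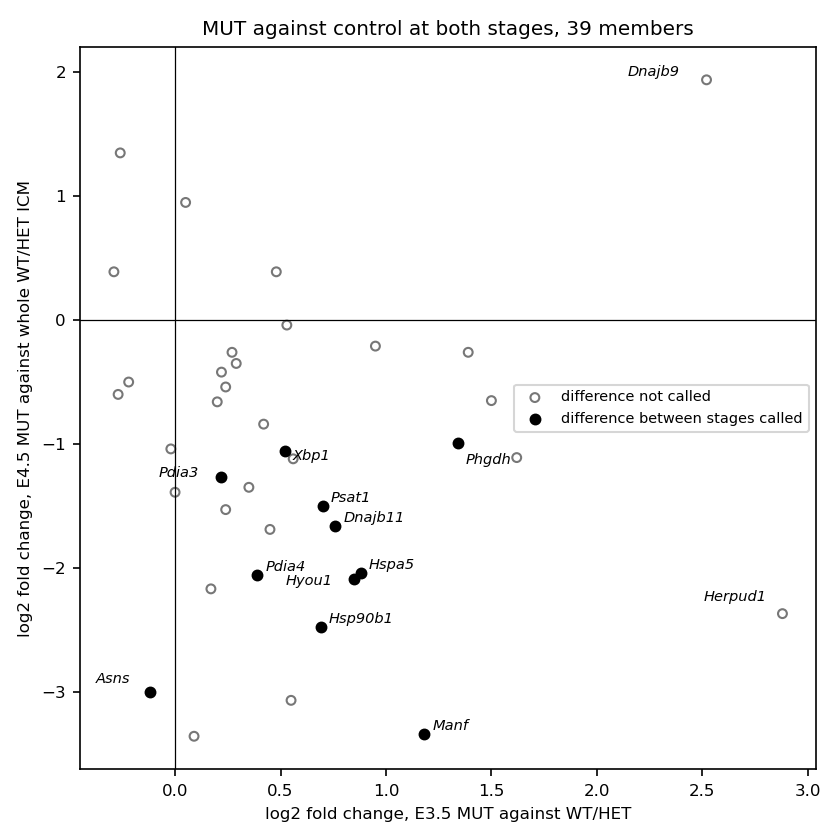
Log2 fold change of MUT against WT/HET at E3.5 on the x axis and against the control ICM at E4.5 on the y axis, with 1 point per member. The 11 filled points passed the test of the difference between stages, and of these all except Asns lie right of 0 and below it.

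Compared directly, 8 of 39 members were lower in E4.5 than in E3.5 MUT embryos and none higher, where 3.69% of 12714 genes were lower and 3.08% higher. The median was -0.90, against -0.03 over all genes, and 16 members passed an unadjusted p of 0.05. Psat1 (log2 fold change -2.89, SE 0.38, adjusted p = 0.0114), Hspa5 (log2 fold change -1.92, SE 0.27, adjusted p = 0.0144) and Hsp90b1 (log2 fold change -2.61, SE 0.38, adjusted p = 0.0161) came first, followed by Hyou1 (-3.49) and Ssr1 (-1.46). This comparison crosses plates and was the least stable. Leaving out MUT embryo 3 left 0 members, and the other 5 MUT embryos left 1 to 5 (without embryo 8, 1; without 17, 3; without 10 or 12, 4; without 19, 5).

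For the 15 chaperones and disulfide isomerases, the mean log2(CPM + 1) of a cell, averaged within embryos, was 9.07 ± 0.29 in PrE (SD over embryos, n = 6), 7.10 ± 0.34 in EPI (n = 6), 7.69 ± 0.38 in E3.5 WT/HET (n = 7), 8.05 ± 0.16 in E3.5 MUT (n = 4), and 5.67 and 6.52 in the 2 E4.5 MUT embryos. The order of the classes was that of the summed levels. All 29 PrE cells were above the highest of the 37 EPI cells. None of the 19 E4.5 MUT cells reached the lowest PrE cell, and 3 were above the median EPI cell. Cells within an embryo spread more in E4.5 MUT, with an SD of 1.16, than in PrE (0.46), EPI (0.50), E3.5 MUT (0.83) or E3.5 WT/HET (0.55). This spread was not tested, and E4.5 cells had fewer detected genes, with medians of 6514 in MUT, 7169 in PrE and 6965 in EPI against 8890 and 9398 at E3.5.

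The ATF4 targets averaged 6.09 ± 0.75 per cell in PrE, 4.25 ± 0.55 in EPI, 4.49 ± 0.38 in E3.5 WT/HET, 4.75 ± 0.35 in E3.5 MUT, and 2.80 and 2.99 in E4.5 MUT. Both E4.5 MUT embryos were below every embryo of the other classes. Within a class, the members did not all rise and fall together. Hspa5 and Hsp90b1 had a Spearman rho across cells of 0.77 in E3.5 WT/HET (58 cells), 0.84 in E3.5 MUT (29), 0.65 in PrE (29), 0.30 in EPI (37) and -0.17 in E4.5 MUT (19). Xbp1 and Hspa5 had 0.34, 0.20, 0.21, -0.05 and 0.00 in the same classes, and Atf4 and Asns had -0.10, 0.48, 0.06, -0.22 and -0.15. Cells of 1 embryo share their source, and a cell's values share its depth, so these coefficients are a description.

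**Figure D4:**
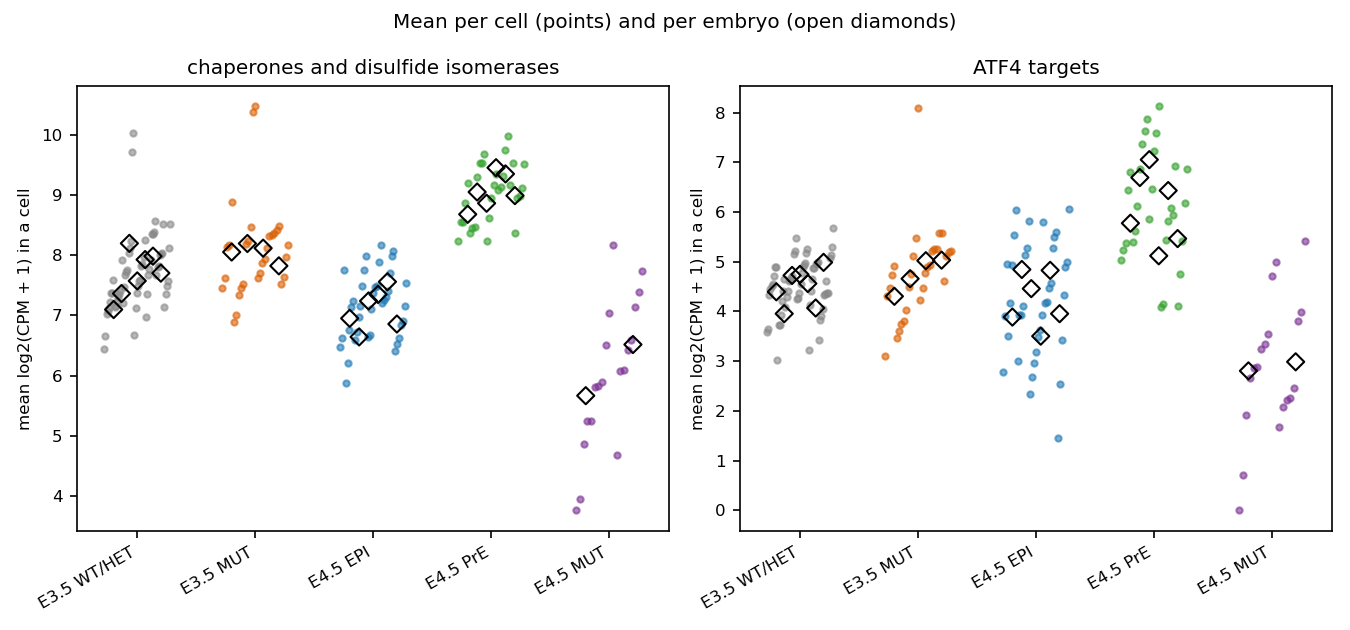
Mean log2(CPM + 1) in each cell over the 15 chaperones and disulfide isomerases (left) and the 6 ATF4 targets (right), by class, with open diamonds at the embryo means. The PrE cells lie above all EPI cells on the left, and 2 cells of E3.5 MUT and 2 of E3.5 WT/HET lie far above the rest of their class.

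The members with an ERSE or ERSE-II in the windows shown at the start can be set beside these values. Of these 11 members 10 were higher in PrE than in EPI, Derl3 being the exception, with a median log2 fold change of 1.81. Of the 21 tested members with a window but neither element, 9 were higher, with a median of 1.03. Most members with an element are chaperones, so element and role cannot be told apart here. Among chaperones and isomerases with a window but neither element, Sdf2l1, Pdia3, Pdia4 and P4hb were also higher, and Dnajb9 was not. In E4.5 MUT against PrE, 8 of the 11 and 9 of the 21 were lower, with medians of -2.46 and -1.38. For the difference between stages the counts were 3 of 11 and 6 of 22, with medians of -2.37 and -1.46. Dnajb9, which has neither element in its window, was among the 2 members without them that were higher in E3.5 MUT, beside Hspa5 and Dnajb11, which have one.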

How the data were processed

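Raw read-pair counts per gene of each cell were used as deposited. The authors had aligned 125-bp pairs to GRCm38 with STAR 2.5.2a and counted them against Ensembl release 87 with htseq-count, leaving out pairs in several genes (8.65%), in no gene (4.72%) or with several alignments (32.3%). The 39 members and all lists were chosen with earlier results of these data known. Symbols came from GENCODE. Embryo and plate came from the study's sample sheet, matched by title for all 172 cells. Counts were summed per embryo (19), and per lineage at E4.5, filtered with filterByExpr, normalized by TMM and tested with edgeR 4.0.16 quasi-likelihood F tests (R 4.3.3, limma 3.58.1), adjusted by Benjamini-Hochberg over all tested genes, with a threshold of 0.05. The study tested single cells; cells of an embryo are not replicates. The fits were tested on simulated counts. CPM used TMM factors over all sums. All members are accounted for; in each comparison up to 5 per direction are named in order of adjusted p, 12 anchor genes are named throughout, and the 3 genes of smallest adjusted p per further list. Reads carry no molecular identifiers, so the totals give counting precision only. EPI and PrE sums share embryos, but the correlations between them after removal of class means were 0.0661, 0.0465, 0.00894, 0.0424, 0.0142 and 0.0473; the pairing comes from the sample sheet, and the fit with embryo as a block called 22 members (median 1.54) against 21 without it. Alternatives were DESeq2 1.42.0, its size factors, filters, limma on cell means, depth, WT controls alone and each embryo left out.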

Additional observations from a re-analysis of the deposited data

Results flagged for a closer look

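Of 156 groups of 4 to 7 embryos, 18 held an embryo far from the others by Dixon's test at the 5% level. The limits of this test assume normal values, for which chance would flag about 1 group in 20. Some levels here are near 0 and the groups share embryos, so the 18 cannot be set against that rate. WT embryo 13 was highest among the E3.5 controls for Hyou1 (98.2 CPM, next 49.99), Sdf2l1 (125, next 44.4), Creld2 (278, next 144), Pdia4 (472, next 263) and Derl3 (72.1, next 3.16), and HET embryo 15 for Derl1 (166, next 122). MUT embryo 12 was highest among the E3.5 MUT embryos for Sdf2l1 (145, next 37.2), Herpud1 (267, next 8.78), Ddit3 (35.1, next 7.41) and Chac1 (7.12, next 0). Embryos 12 and 13 hold the 4 cells described in the report. In EPI, embryo 1 was far from the rest for Pdia3 (lowest, 612, next 1107), Derl3 (highest, 57.2, next 12.7) and Atf4 (highest, 263, next 123). Its EPI sum held only 3 cells. Embryo 2 was far for Atf6 (highest, 49.6, next 23.2). In PrE, the far embryos were 5 for Manf (highest, 1022, next 605), 2 for Derl3 (highest, 103, next 37.9), 1 for Serp1 (lowest, 277, next 513) and 4 for Eif2ak3 (lowest, 1.33, next 15.2).

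The MUT effect differed between the stages by the interaction test for 11 members. The log2 differences, E4.5 less E3.5, were -2.93 for Hspa5, -3.18 for Hsp90b1, -2.44 for Dnajb11, -4.54 for Manf, -2.21 for Psat1, -1.51 for Pdia3, -2.47 for Pdia4, -2.96 for Hyou1, -2.90 for Asns, -2.34 for Phgdh and -1.60 for Xbp1.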

How the results depend on the processing

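No called member changed direction under the alternatives run. Of 632 values under settings other than leaving out embryos 552 passed again, and of 731 with an embryo left out 640 did. With WT embryos as the only controls 65 of 74 did not pass, and the members called fell from 4 to 1 at E3.5, from 21 to 0 for PrE against EPI, from 4 to 0 for E4.5 MUT against EPI (median -0.48 in place of -0.30), from 19 to 1 against PrE (median -1.46 in place of -1.74), from 15 to 0 against the whole ICM and from 11 to 7 for the difference between stages. This setting leaves 2 control embryos at E4.5. DESeq2 called 7 members at E3.5, 8 against EPI, 23 against the whole ICM, 17 for the difference between stages and 14 for E4.5 MUT against E3.5 MUT. The limma fit on cell means called 14 in the last, and gave medians of 1.83 for PrE against EPI, -0.62 for MUT against EPI, -3.02 against PrE and -1.50 against the whole ICM. It moved the median of all genes to -0.23 at E3.5, where that of the members was 0.04, and to -0.44 for E4.5 MUT against E3.5 MUT, while leaving out the filter on low counts moved it to -0.13 at E3.5, -0.36 against the whole ICM and -0.38 for E4.5 MUT against E3.5 MUT. With EPI sums as the E4.5 control 5 members differed between stages (median -0.59), and with PrE sums 20 (median -2.23). Without the 4 high E3.5 cells, added after the data were seen, the median of that difference was -1.26 in place of -1.68 and 5 members were called for E4.5 MUT against E3.5 MUT. Where not named, the cause of such a move was not tested.

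With each embryo left out in turn, the members called were 2 to 5 at E3.5, 20 to 22 for PrE against EPI, 1 to 6 for MUT against EPI, 7 to 19 against PrE, 8 to 16 against the whole ICM, 7 to 14 for the difference between stages (medians -1.86 to -1.30) and 0 to 5 for E4.5 MUT against E3.5 MUT. A fit that leaves 1 MUT embryo assumes that it varies like the other group. The replicate block for embryo called 22 members for PrE against EPI (median 1.54) and kept all 21 members that passed without it.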
